A study of Mus musculus with 12 samples.

Results

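The nuclear genes of the mitochondrial respiratory chain were taken from 4 tables of mouse embryonic stem cell RNA, by symbol: those starting with Nduf, with Sdh followed by a, b, c or d, with Uqcr, with Cox4 to Cox8, or with Atp5. They were 97 of the 18412 genes listed, with 38 named as subunits of complex I and 8 as its assembly factors (Ndufaf), 4 subunits of complex II and 4 of its assembly factors (Sdhaf), 8 genes of complex III, 18 of complex IV and 17 of complex V. None of the 13 protein genes encoded by mitochondrial DNA is listed in the tables, so the nuclear genes alone are described. The groups were Dicer1-/- cells, which lack the nuclease that cuts microRNA precursors, set against the wild-type line TFC, and Dgcr8-/- cells, which lack the protein that holds primary microRNA transcripts for Drosha, set against the wild-type line V6.5. Each group had 3 libraries, 12 in all, of polyadenylated RNA sequenced with its strand kept, from cells on gelatin in serum medium with LIF. At issue is which RNAs change, in exons and in introns, once either factor has been lost for good. Each comparison sets 1 knockout line against 1 wild-type line, and the effect of the lost factor and that of anything else in which those lines differ cannot be told apart. The labels do not say that the 3 libraries of a group were separate cultures; p-values reflect how much the libraries vary, and this may be technical.

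The respiratory chain sits in the inner mitochondrial membrane. Complexes I and II pass electrons from NADH and succinate to ubiquinone, complex III hands them to cytochrome c, complex IV to oxygen, and complex V, the ATP synthase, uses the proton gradient that complexes I, III and IV build. Most subunits are encoded in the nucleus and imported, and several have paralogs used mainly in muscle, lung or testis. Embryonic stem cells respire but lean strongly on glycolysis, and their mitochondria gain in activity as the cells differentiate. Groups here follow the symbols: Ndufa4 is named for complex I but is known as a subunit of complex IV, and Atp5sl is known as an assembly factor of complex I.

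The promoters of Cox7a2l, Sdhd and Uqcrh are shown first, because the results return to these genes most often. Exonic reads of these 3 genes passed as lower in both knockouts once a term for the library set was included. Without that term only Cox7a2l passed, in the Dicer pair alone. Each promoter is the RefSeq sequence of GRCm38.p6 from 250 bases before to 50 bases after the first listed start, 5′ to 3′ on the gene's strand. They span chr17:83514284-83514583 (minus strand) for Cox7a2l, chr9:50603800-50604099 (minus strand) for Sdhd and chr4:116075021-116075320 (minus strand) for Uqcrh. In GENCODE vM21 the Cox7a2l gene spans chr17:83501918-83517330, so the window shown lies inside that span. Sdhd spans chr9:50596357-50603812 and Uqcrh chr4:116066965-116075071, also on the minus strand. Capitals mark motif letters of nuclear respiratory factor 1 (NRF1), an ETS factor such as GABP, or YY1, of which the window of Cox7a2l holds none.
Cox7a2l: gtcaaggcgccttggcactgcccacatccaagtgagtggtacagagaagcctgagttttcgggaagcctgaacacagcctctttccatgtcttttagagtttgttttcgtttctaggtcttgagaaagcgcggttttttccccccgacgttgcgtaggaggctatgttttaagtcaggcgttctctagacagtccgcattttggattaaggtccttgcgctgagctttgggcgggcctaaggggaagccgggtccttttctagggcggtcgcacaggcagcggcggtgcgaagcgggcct
Sdhd: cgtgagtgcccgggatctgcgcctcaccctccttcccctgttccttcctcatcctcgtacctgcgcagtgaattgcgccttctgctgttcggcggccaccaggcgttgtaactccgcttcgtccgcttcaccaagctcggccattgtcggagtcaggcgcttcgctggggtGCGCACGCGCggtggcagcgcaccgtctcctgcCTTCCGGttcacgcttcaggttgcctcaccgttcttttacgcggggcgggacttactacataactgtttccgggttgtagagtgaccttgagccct
Uqcrh: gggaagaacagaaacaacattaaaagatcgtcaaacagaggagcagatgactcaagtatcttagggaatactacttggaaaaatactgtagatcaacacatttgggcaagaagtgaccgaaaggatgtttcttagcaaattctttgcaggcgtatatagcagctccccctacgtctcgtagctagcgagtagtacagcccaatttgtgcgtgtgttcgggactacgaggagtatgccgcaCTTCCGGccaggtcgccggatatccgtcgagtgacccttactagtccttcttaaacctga
The letters searched on both strands were GCGCA and GCGC with any 1 base between them for NRF1, CCGGAAG for ETS factors, which reads CTTCCGG on the other strand, and AANATGGCG for YY1. These factors are known for binding promoters of nuclear genes for mitochondrial proteins. Of the 97 genes, 81 had a promoter entry. The NRF1 letters stood in 24.7% of the 81, against 4.8% of all 27025 promoters and 7.7% of the 14124 promoters of listed genes. The ETS letters stood in 24.7%, against 9.1% and 13.5%, and the YY1 letters in 13.6%, against 2.5% and 3.9%. At least 1 of the 3 stood in 53.1% of the 81 promoters, against 14.7% of all and 22.3% of those of listed genes. CCAAT, the letters bound by NF-Y, stood in 44.4%, close to the 37.9% of all promoters. The Sdhd window holds 1 NRF1 and 1 ETS match that do not overlap, and the Uqcrh window holds 1 ETS match and 1 CCAAT, left in lower case. Median GC content was 58.7% in these promoters and 58.3% in those of listed genes, so base composition differed little. A match describes letters and is not a bound site.

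The deposited columns are group means of normalised reads, and the value of each library was solved from them, as described under the processing. Libraries are called A, B and C within a group, A being the one least like the other 2. Exonic depth was 5933173 to 34014204 reads per library and intronic depth 559057 to 5597604. Exonic reads of Dicer1 itself were 1334, 1763 and 1675 in Dicer1-/- libraries, against 2944, 3278 and 3496 in TFC. Exonic reads of Dgcr8 were 342, 956 and 1114 in Dgcr8-/- libraries, against 1929.8, 2707 and 2947 in V6.5. Exonic reads of both targeted genes were lower in every knockout library than in its wild type. Intronic reads of Dicer1 were also lower, with 344, 309.8 and 299 in Dicer1-/- cells against 437, 590.5 and 418 in TFC, whereas those of Dgcr8 were higher, with 389, 408 and 438 in Dgcr8-/- cells against 243, 215 and 311 in V6.5. Summed reads of 6 embryonic stem cell markers (Pou5f1, Nanog, Sox2, Zfp42, Esrrb and Dppa5a) were 123216 to 129814 in Dicer1-/- cells against 83686 to 107685 in TFC, and 80161 to 112521 in Dgcr8-/- cells against 31855 to 85323 in V6.5, with none of the 6 at 0. A test counted as passed at a Benjamini-Hochberg adjusted p under 0.05 over all genes tested, those averaging 10 or more normalised reads over the 6 libraries. Counts at an unadjusted p under 0.05 are given as description. Except for the exonic minus intronic change, the share of all genes at that level is not given beside them. No result on members or lists is read from these counts.

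As one sum of normalised exonic reads, the 97 genes held 0.865 ± 0.028% in Dicer1-/- cells and 0.899 ± 0.063% in TFC (SD, n = 3 each), and 0.862 ± 0.204% in Dgcr8-/- cells and 0.801 ± 0.142% in V6.5 (SD, n = 3 each). The shares of knockout and wild-type libraries overlapped in both pairs. Summed per kilobase, which gives short transcripts more weight, members had 139697, 139874.5 and 146338 reads in Dicer1-/- libraries A, B and C, against 155379.6, 151054 and 163559.9 in TFC. On that scale all 3 Dicer1-/- libraries lay below all 3 of TFC, while the Dgcr8 pair overlapped, with means of 99584 ± 22782 in Dgcr8-/- cells and 98003 ± 20846 in V6.5 (SD, n = 3 each). Complex V held the largest share, 0.471 ± 0.030% in Dicer1-/- cells and 0.456 ± 0.042% in TFC, and 0.488 ± 0.090% in Dgcr8-/- cells and 0.413 ± 0.055% in V6.5 (SD, n = 3 each). Complex III held 0.064, 0.074 and 0.071% in Dicer1-/- libraries A, B and C, against 0.076, 0.082 and 0.083% in TFC. That share was lower in all 3 Dicer1-/- libraries, though the same sum per kilobase overlapped, at 16102 in Dicer1-/- library B and 14402 in TFC library A. The summed normalised reads overlapped too, at 14897 in Dicer1-/- library B and 13709 in TFC library A. In the Dgcr8 pair the shares overlapped, with 0.091, 0.062 and 0.065% in Dgcr8-/- cells against 0.085, 0.065 and 0.058% in V6.5. Per kilobase, complex II did not overlap in the Dicer pair, at 5753, 6075 and 6448.5 reads in Dicer1-/- cells against 6649.5, 7972 and 7475 in TFC. The assembly factors of complex I did not either, at 1527, 1820 and 1997 against 2113, 3179.5 and 2384. The summed normalised reads of both groups overlapped in that pair, and their sums per kilobase overlapped in the Dgcr8 pair. The assembly factors of complex II held 0.006, 0.009 and 0.009% in Dicer1-/- libraries against 0.010, 0.011 and 0.011% in TFC, and 0.007% in each Dgcr8-/- library against 0.008, 0.011 and 0.012% in V6.5. This share was lower in every knockout library of both pairs, while per kilobase the sums overlapped in both. The summed normalised reads overlapped too, at 1865 in Dicer1-/- library B and 1707 in TFC library A. In the Dgcr8 pair they were 1079 in Dgcr8-/- library C and 1061 in V6.5 library A. Complex IV in the Dgcr8 pair varied by library letter, and held 0.134% in library A of Dgcr8-/- cells against 0.057 and 0.054% in B and C, and 0.140% in library A of V6.5 against 0.090 and 0.058%. Sums were not tested.

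**Figure D1:**
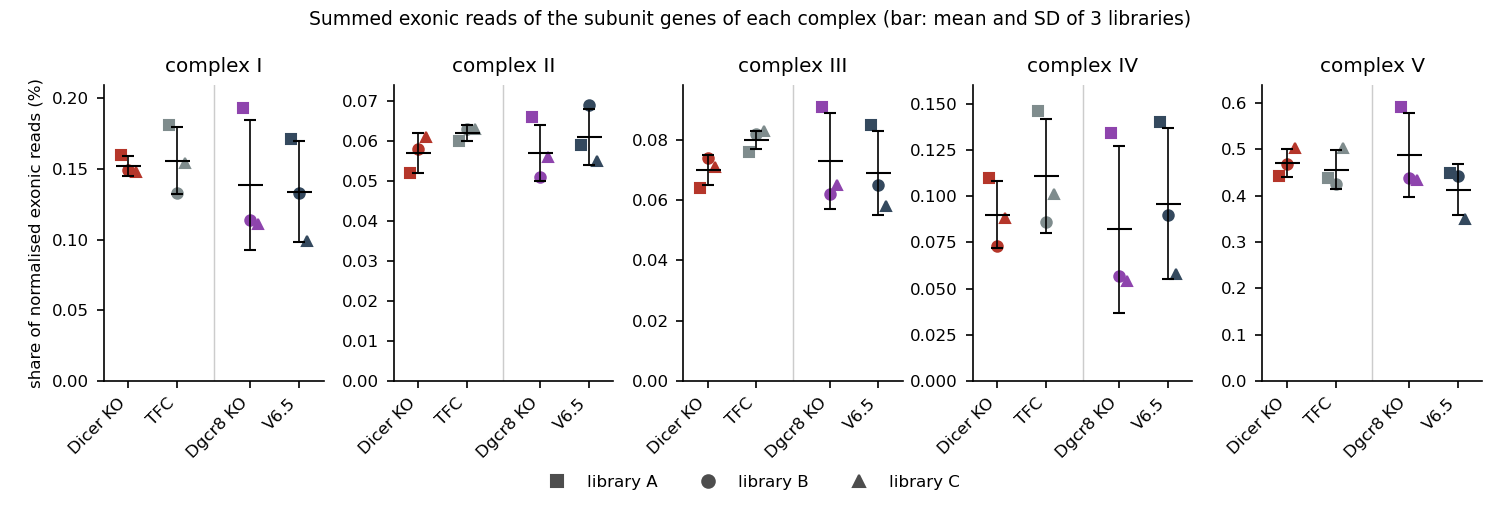
Share of the normalised exonic reads (%, linear axes from 0) held by the subunit genes of each complex, 1 point per library, with squares for library A, circles for B and triangles for C. Black bars give mean and SD of 3 libraries. Complex V holds the largest share in all 4 groups, and in complex IV library A stands highest in each group.

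Per kilobase of exon, Atp5b, the catalytic beta subunit of the ATP synthase, had the highest level of all members in each of the 4 groups. Its mean was 23718 normalised reads per kilobase in Dicer1-/- cells and 22047 in TFC, and 18764 in Dgcr8-/- cells and 14301 in V6.5. Atp5a1, the alpha subunit beside it in the catalytic head, came next with 9116 reads per kilobase in Dicer1-/- cells, 8139 in TFC, 7091 in Dgcr8-/- cells and 5236 in V6.5. Within the other complexes the highest levels belonged to Ndufs6 in complex I, Uqcrb in complex III and Cox4i1 in complex IV, in each of the 4 groups. Cox4i1, the broadly expressed form of subunit 4, had 4654 reads per kilobase in Dicer1-/- cells and 5541 in TFC, and 3131 in Dgcr8-/- cells and 3788 in V6.5. Uqcrb, the ubiquinone-binding subunit of complex III, had 4856 in Dicer1-/- cells and 5835 in TFC, and 3009.6 in Dgcr8-/- cells and 2601 in V6.5. In complex II the order differed between groups: Sdha, the flavoprotein that oxidises succinate, led in both knockouts, with 2276 reads per kilobase in Dicer1-/- cells and 1669 in Dgcr8-/- cells, and Sdhd, a membrane anchor, led in both wild-type lines, with 3059 in TFC and 1905 in V6.5. The difference in that order was not tested.

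Library A is by definition the one that differs most, and respiratory chain genes were part of that difference, somewhat less often than genes at large. The log2 level in A differed from the mean of B and C by more than 1 in 24 of 92 tested members in Dicer1-/- cells and 36 of 92 in TFC, and in 41 of 93 in Dgcr8-/- cells and 34 of 93 in V6.5. These are 26.1, 39.1, 44.1 and 36.6% of members, beside 32.5, 45.7, 45.9 and 40.5% of all genes tested. In the Dgcr8 pair members leaned to higher values in A more than all genes did. Their median difference was 0.566 in Dgcr8-/- cells and 0.388 in V6.5, against 0.093 and 0.005 over all genes. In the Dicer pair it was -0.008 in Dicer1-/- cells and 0.112 in TFC, against 0.057 and 0.181 over all genes. Members that stood over 2 higher in A of all 4 groups were Ndufa4l2, Ndufb7 and Ndufs7 of complex I, the assembly factor Ndufaf8, Uqcr11 and Uqcrq of complex III, and Atp5d of complex V. Atp5d, the delta subunit in the central stalk of the ATP synthase, had 1847, 157 and 171 reads in Dicer1-/- libraries A, B and C, against 2558, 158 and 242 in TFC. In the Dgcr8 pair it had 1724, 68.4 and 138 reads in Dgcr8-/- cells, against 2498.5, 171 and 35.1 in V6.5. Ndufs7, an iron-sulfur subunit of complex I, had 500.3, 17.0 and 63.7 reads in Dicer1-/- cells against 548, 17.5 and 15.8 in TFC. Uqcr11, a small subunit of complex III, had 455, 28.7 and 1.6 reads in Dgcr8-/- cells against 401, 16.3 and 3.2 in V6.5. For these genes the letter of the library set the level, and the genotypes overlapped.

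The GC content of these 7 transcripts was 50.2 to 63.2%. Across members, GC content and the excess in library A had a Pearson r of 0.575 in Dicer1-/- cells and 0.647 in TFC (92 genes), and 0.692 in Dgcr8-/- cells and 0.595 in V6.5 (93 genes). Over all genes tested r was 0.555, 0.558, 0.744 and 0.6 in the same order of groups, so the relation was not particular to members. These are descriptions across genes of the same libraries and carry no p. In the third of members with the highest GC content (from 53.8%) the median excess in A was 0.71 in Dicer1-/- cells, 1.19 in TFC, 1.43 in Dgcr8-/- cells and 1.47 in V6.5 on the log2 scale. In the third with the lowest (below 49.2%) it was -0.55, -0.47, -0.23 and 0.07. GC content followed the difference between knockout and wild type much less, with r over members of 0.22 in the Dicer pair and 0.207 in the Dgcr8 pair. Over all genes tested this r was lower, 0.08 and -0.006. By rank (Spearman) the values over members were 0.255 in the Dicer pair and 0.077 in the Dgcr8 pair. The fit with a term for the library set, library A against B and C, is therefore given beside the fit without it. Library A was picked from these same data as the least alike, so p-values of the fit with the term may be too small.

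**Figure D2:**
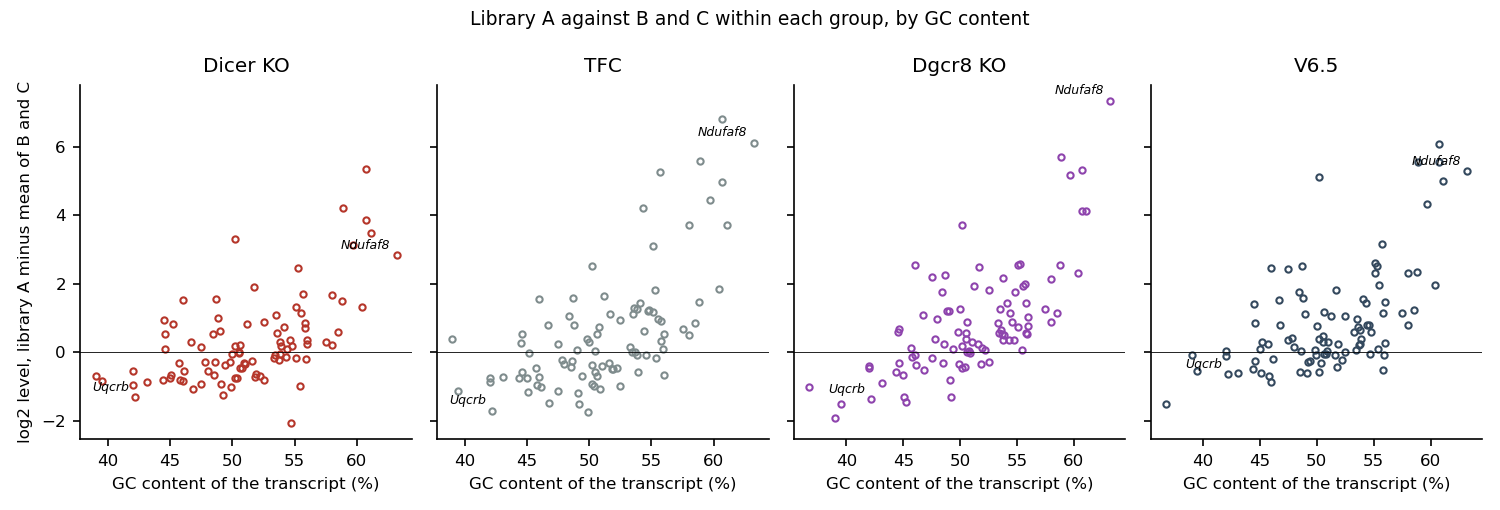
Each point is 1 tested member; the x axis is the GC content of its transcript (%) and the y axis its log2 level in library A minus the mean of B and C, in 4 panels by group. Ndufaf8, at 63.2% GC, stands 2.83 higher in A in Dicer1-/- cells and 7.35 higher in Dgcr8-/- cells, and Uqcrb, at 42.2%, stands lower in A in each group.

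In Dicer1-/- cells, 1 of the 92 tested members fell in exonic reads and none rose (limma with Benjamini-Hochberg adjustment). This share stands beside 1.22% of all 13226 genes tested, or 0.227% counting those that fell and 0.998% those that rose, and 1 of 92 is near this background. As a count without the share of all genes, 4 members stood at an unadjusted p under 0.05, all lower: Cox7a2l, Sdhd, Atp5g3 and Ndufaf7. The member that fell was Cox7a2l, a relative of subunit 7a of complex IV, also known as Scaf1, that is found where complexes III and IV join in a supercomplex. It had 1141, 1456 and 1348 normalised reads in Dicer1-/- libraries A, B and C, against 4724, 3868 and 3478 in TFC. All 3 knockout libraries lay below all 3 of TFC, at 0.327 times the mean. Its log2 fold change was -1.61 (SE 0.23, adjusted p = 0.0277, limma). The call was lost on leaving out Dicer1-/- library B or C (adjusted p = 0.194 and 0.239) or TFC library B or C (adjusted p = 0.103 and 0.130), with log2 fold changes of -1.63 to -1.71. Library A alone gave -2.05, with no test, and libraries B and C alone gave -1.39 (adjusted p = 0.0501). With the term for the library set it was -1.61 (adjusted p = 0.000545), and over all alternatives the adjusted p ran up to 0.239.

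The median change of members in Dicer1-/- cells lay slightly below that of all genes, a difference that was not tested. Of the 92 tested members, 59 were lower and 33 higher, with a median log2 fold change of -0.153 against -0.012 over all genes tested. The share of all genes that were lower, and the median with single libraries left out, are not given here. No lean is read from these counts. Within library A alone the median was -0.201, and within B and C alone it was -0.094. The members' quartiles were -0.358 and 0.107, closer together than those of all genes, -0.532 and 0.607. Only 8 of the 92 had knockout and wild-type libraries that did not overlap, 2 higher and 6 lower, beside 21.4% of all genes tested, 11.7% higher and 9.69% lower. By complex, the medians were -0.074 for 38 genes of complex I, -0.424 for its 8 assembly factors, -0.047 for 4 subunits of complex II and -0.370 for 4 of its assembly factors, -0.128 for 8 genes of complex III, -0.159 for 13 tested genes of complex IV and -0.186 for 17 of complex V.

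The members with no overlap show the size of single differences in the Dicer pair. Sdhd, which with Sdhc anchors complex II in the membrane and shapes its ubiquinone site, had 1639.6, 1991 and 2279 reads in Dicer1-/- cells against 2745, 4932 and 4116 in TFC. The highest knockout library lay below the lowest of TFC, and the log2 fold change was -0.97 (SE 0.28, adjusted p = 0.150, limma). Atp5g3, 1 of 3 genes for the same mature c subunit of the rotor of the ATP synthase, had 1651, 1454 and 1922 reads in Dicer1-/- cells against 2149, 2725 and 3721 in TFC. Ndufaf7, a methyltransferase that acts during complex I assembly, had 254, 290 and 194 reads in Dicer1-/- cells against 407, 505 and 746 in TFC. These members lay lower in each knockout library, and none of the 3 passed the test without the library-set term. Sdhaf3, a factor for the iron-sulfur subunit Sdhb, had 173, 127 and 75.7 reads in Dicer1-/- cells against 264, 295 and 242 in TFC. Atp5e, the epsilon subunit of the ATP synthase, had 333, 170.4 and 391.7 reads in Dicer1-/- cells against 445, 470.2 and 469 in TFC. Ndufa10, an accessory subunit of complex I, was higher in every Dicer1-/- library, with 1188, 1281 and 1207 reads in Dicer1-/- cells against 1049, 979 and 1120.4 in TFC, which is 0.23 on the log2 scale.

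With the term for the library set, 5 of 92 members fell in Dicer1-/- cells and none rose, beside 12.3% of all genes called, 5.04% counting those that fell and 7.21% those that rose. The share of members that fell is about that of genes at large. The 5 were Cox7a2l, Sdhd (adjusted p = 0.00364), Uqcrh (adjusted p = 0.0207), Ndufaf4 (adjusted p = 0.0224) and Atp5g3 (adjusted p = 0.0346). Uqcrh, the hinge protein that helps cytochrome c1 meet cytochrome c, had 744, 1565 and 1451 reads in Dicer1-/- cells against 947, 2976 and 3354 in TFC. Its levels in B and C were about 2 times as high in TFC as in the knockout, while TFC library A lay among the knockout libraries. The Uqcrh gene overlaps Gm12854 on the opposite strand. Ndufaf4, an assembly factor of complex I, had 893, 1624 and 1601 reads in Dicer1-/- cells against 1242, 2749 and 2784 in TFC, also with TFC library A among the knockout values.

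**Figure D3:**
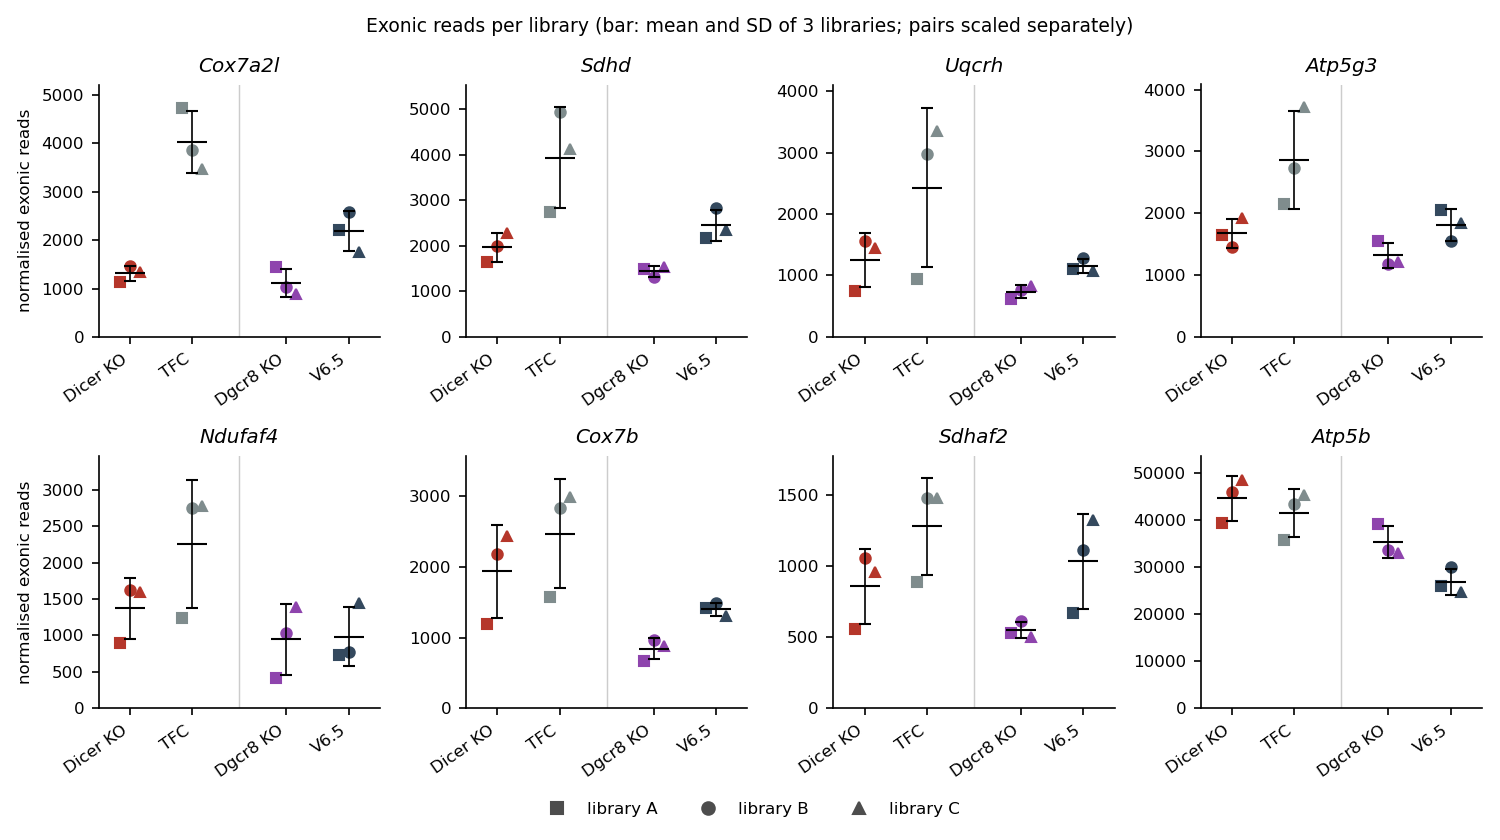
Normalised exonic reads of 8 members in each library (linear axes from 0), Dicer1-/- left of TFC and Dgcr8-/- left of V6.5, with squares for library A, circles for B, triangles for C and black bars for mean and SD of 3 libraries. The Dicer and Dgcr8 tables were scaled separately. Cox7a2l and Sdhd do not overlap in either pair, and for Uqcrh and Ndufaf4 library A of TFC lies among the Dicer1-/- values.

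In Dgcr8-/- cells, none of the 93 tested members passed the test in exonic reads, beside 1.26% of all 12766 genes tested (161 genes), and limma-voom on the recovered reads called none either. As a count without the share of all genes, 6 members stood at an unadjusted p under 0.05, all lower: Cox7a2l, Sdhd, Cox7b, Cox7b2, Sdhaf2 and Uqcrh. Of the 93, 44 were higher and 49 lower, with a median log2 fold change of -0.039 against -0.080 over all genes. Their quartiles were -0.288 and 0.163, against -0.613 and 0.438 over all genes. The median within library A alone was -0.063 and within B and C alone 0.000, and leaving out single libraries moved it between -0.262 and 0.098, so no lean is read from it. The groups did not overlap for 11 members, 1 higher and 10 lower, beside 22.5% of all genes, 10.6% higher and 11.9% lower. By complex, medians ran from -0.147 for the assembly factors of complex I to 0.128 for complex II.

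Cox7a2l had 1446, 1025 and 891 reads in Dgcr8-/- libraries A, B and C, against 2201, 2581 and 1763 in V6.5. All 3 knockout libraries lay below all 3 of V6.5, at 0.514 times the mean, with a log2 fold change of -0.97 (SE 0.30, adjusted p = 0.157, limma). Sdhd had 1498, 1305 and 1529 reads in Dgcr8-/- cells against 2163, 2828 and 2353 in V6.5, a log2 fold change of -0.76 (SE 0.25, adjusted p = 0.18). Cox7b, a small subunit of complex IV, had 673, 966 and 884 reads in Dgcr8-/- cells against 1422, 1482 and 1301 in V6.5. Uqcrh had 622, 764 and 823 reads in Dgcr8-/- cells against 1104.5, 1284 and 1081 in V6.5. Every knockout library of these 4 genes lay below every wild-type library. Sdhaf2, which helps to attach FAD to Sdha, had 529.5, 615 and 504 reads in Dgcr8-/- cells against 668, 1112 and 1319.7 in V6.5; its gene overlaps Cpsf7 on the opposite strand, so reads of the pair are told apart only if the counting used strand, which the sources used here do not state.

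Smaller differences with no overlap were seen for Atp5j2, the f subunit of the ATP synthase, with 533, 579.5 and 453 reads in Dgcr8-/- cells against 706, 1090.5 and 626 in V6.5. Cox7a2, the broadly expressed subunit 7a of complex IV, had 516, 488 and 458 reads in Dgcr8-/- cells against 729, 721 and 528 in V6.5. Ndufa4 had 408.5, 397 and 361 reads in Dgcr8-/- cells against 505, 415 and 445 in V6.5, groups that come close to touching. Cox7b2, a testis form of subunit 7b, was near 0 with 0, 3.1 and 0 reads in Dgcr8-/- cells against 10.2, 25.4 and 38.3 in V6.5. The smallest of these differences, outside the rule for named genes, was that of Atp5h, the d subunit of the ATP synthase. Higher in every Dgcr8-/- library was Atp5b, with 39151, 33646 and 32976 reads in Dgcr8-/- cells against 25950.2, 29956 and 24710.1 in V6.5, a log2 fold change of 0.39 (SE 0.27, adjusted p = 0.560). The Dgcr8-/- values of Atp5b come from 1 of several possible solutions, kept because it put the libraries close together, so their spread may be too small; in simulated data for that column 9 of 11 solutions kept in this way were right.

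With the term for the library set, 5 of 93 members fell in Dgcr8-/- cells and none rose, beside 17.0% of all genes called, 8.62% counting those that fell and 8.33% those that rose. The members' share is below that of all genes. The 5 were Cox7a2l (adjusted p = 0.0139), Sdhd (adjusted p = 0.0198), Cox7b (adjusted p = 0.0289), Sdhaf2 (adjusted p = 0.0360) and Uqcrh (adjusted p = 0.0460). In libraries B and C alone 3 members passed and fell, Cox7a2l, Sdhaf2 and Sdhd, beside 16.0% of all genes called (7.89% higher, 8.08% lower). In this pair, 4 of the 5 marker sums of other cell types were lower in all Dgcr8-/- libraries. The trophectoderm markers were Cdx2, Eomes, Krt8, Krt18, Elf5 and Tfap2c, and those of streak and mesoderm T, Mixl1, Eomes, Mesp1 and Wnt3. Both lists hold Eomes, so their sums are not independent. Summed reads of 7 fibroblast markers were 68.4 to 216 in Dgcr8-/- cells against 1323 to 3058 in V6.5, of 6 trophectoderm markers 1374 to 2602 against 10464 to 14081, and of 5 streak and mesoderm markers 119.6 to 184 against 315 to 4605, with T and Mesp1 at 0 in all Dgcr8-/- libraries and Mesp1 also in V6.5. The 6 primitive endoderm markers summed to 165 to 269.5 in Dgcr8-/- cells and 607 to 1059.9 in V6.5. The sums of the 4 neural markers overlapped, at 2679 to 5112 in Dgcr8-/- cells and 3359 to 7147 in V6.5. Single genes can differ within such a sum. Of the neural markers, Sox1 and Pax6 passed the test with the library-set term, beside the 17.0% of all genes called. Library A of V6.5 also differed from B and C in some of these sums. It had 315 streak and mesoderm reads against 3857.5 and 4605, and 1323 fibroblast reads against 3058 and 3035. Its stem cell markers summed to 85323 against 31855 and 37012, while its trophectoderm and neural sums lay between those of B and C. In the Dicer pair the fibroblast markers summed to 39.8 to 77.2 in Dicer1-/- cells, with 4 of 7 at 0, and 242 to 495 in TFC. The other 4 sums of that pair overlapped. Trophectoderm markers summed to 3633 to 5534 in Dicer1-/- cells and 1943 to 5801 in TFC, and primitive endoderm markers to 261 to 308 and 280 to 1061. Streak and mesoderm markers summed to 139 to 324 and 313.5 to 483, and neural markers to 2297 to 4455 and 2374 to 3910. The part of these differences in the results for members was not tested, and in bulk RNA fewer cells of a type and less RNA per cell cannot be told apart.

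**Figure D4:**
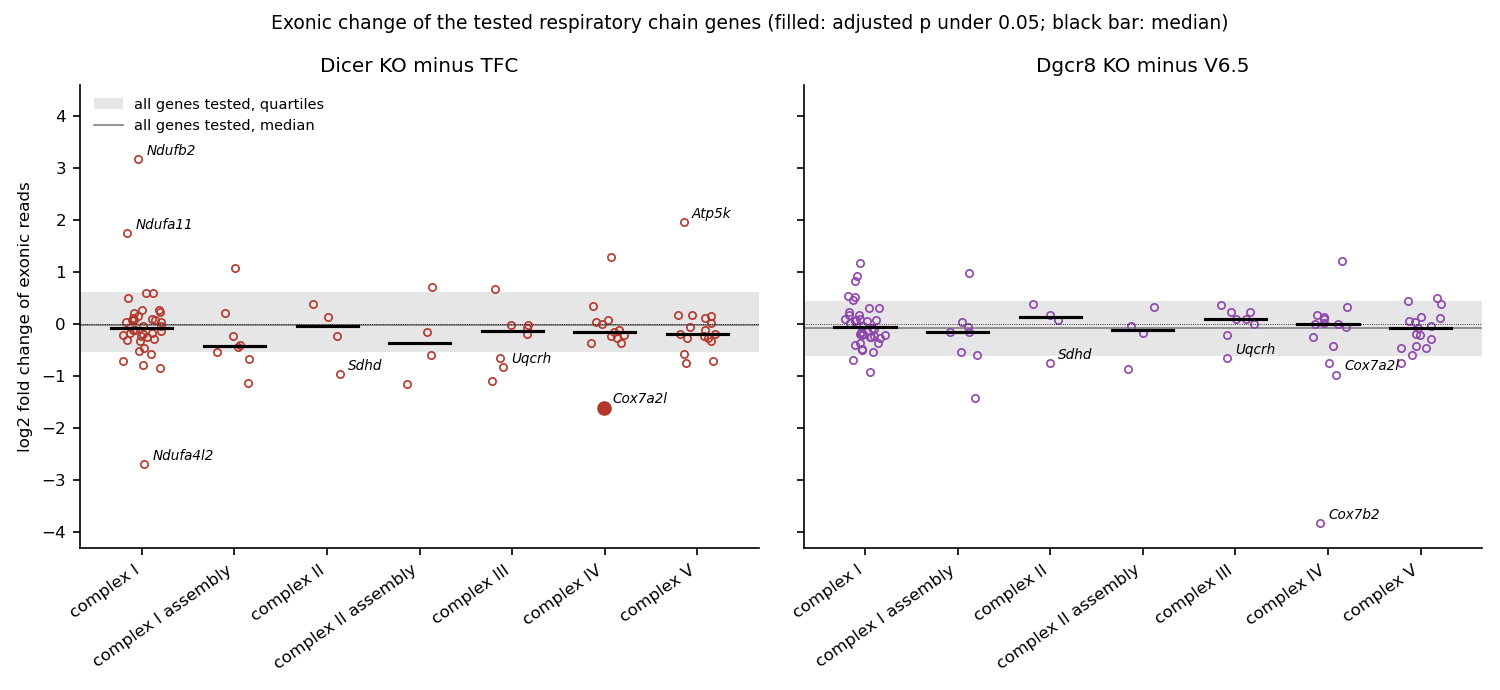
Log2 fold change of exonic reads (knockout minus wild type) of each tested member by complex, Dicer pair left and Dgcr8 pair right. Black bars are medians, the grey band and line are quartiles and median of all genes tested, and a filled point passed the test. Cox7a2l in the Dicer pair is the single filled point, and most members lie inside the grey band.

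Both knockouts can be set side by side, since the pairs share no libraries. Of the 92 members tested in both, 36 were lower in both and 21 higher in both, 39.1% and 22.8%, against 34.1% and 31.4% of all 12370 genes. Cox7a2l and Sdhd were the 2 members lower with no overlap in both pairs, 2.17% of members against 3.45% of all genes, and none was higher with no overlap in both. With the library-set term, Cox7a2l, Sdhd and Uqcrh fell in both. Without it only Cox7a2l passed, in the Dicer pair alone. The difference between both effects passed the test for none of the 92 members (limma contrast over 12 libraries), beside 0.146% of all genes, and at an unadjusted p under 0.05 for none. With the library-set term it passed for none either, beside 2.75% of all genes, and 3 members stood at an unadjusted p under 0.05. For Cox7a2l the Dicer effect minus the Dgcr8 effect was -0.63 on the log2 scale (SE 0.36, adjusted p = 0.828), for Sdhd -0.21 (SE 0.36, adjusted p = 0.999) and for Uqcrh -0.17 (SE 0.62, adjusted p = 0.999). A p that misses the threshold does not show that the effects were alike.

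Among paralogous subunits, Cox4i2, Cox6a2, Cox8b and Cox8c, forms of lung, muscle, heart and testis, were near 0 in all groups beside their broadly expressed counterparts, while Cox7a1, Cox6b2 and Ndufa4l2 were detected at higher levels. Cox4i1 had 3866, 2977 and 3823 reads in Dicer1-/- cells against 5223, 3382 and 4096 in TFC, while Cox4i2, the lung form, had at most 11.5 reads in any library of that pair. Cox8a had 2822, 1578 and 2243 reads in Dicer1-/- cells against 3012, 1243 and 2272 in TFC, while Cox8b and Cox8c, the heart and testis forms, were at 0 in all Dicer1-/- libraries and at 7.5 and 3.2 reads in TFC library A alone. Cox6a2, the muscle form of subunit 6a, was at 0 in all but 1 of the 12 libraries. These 4 genes and, in the Dicer pair, Cox7b2 did not reach the minimum level for testing, so 92 and 93 of the 97 members were tested. Cox7a1, the heart and muscle form of subunit 7a, was low but present, with 21.7, 159 and 55.8 reads in Dicer1-/- cells against 118, 32.5 and 80.5 in TFC. Cox6b2, a testis form of subunit 6b, stood highest in library A, with 369, 126 and 99.6 reads in Dicer1-/- cells against 779, 5.0 and 69.0 in TFC. Ndufa4l2, a paralog of Ndufa4 that hypoxia is known to raise, had 39.6, 0 and 0 reads in Dicer1-/- cells against 517, 0 and 20.1 in TFC, and 39.2, 0 and 0 in Dgcr8-/- cells against 66.0, 0 and 0 in V6.5. Its reads lay almost wholly in library A, and no direction between genotypes is read from it. The c-subunit genes differed in this respect: Atp5g1 had 1066, 172 and 190.3 reads in Dgcr8-/- cells against 1460.0, 393 and 147 in V6.5, spread by library, while Atp5g3 had 1557, 1184 and 1211 against 2057, 1547 and 1835.

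**Figure D5:**
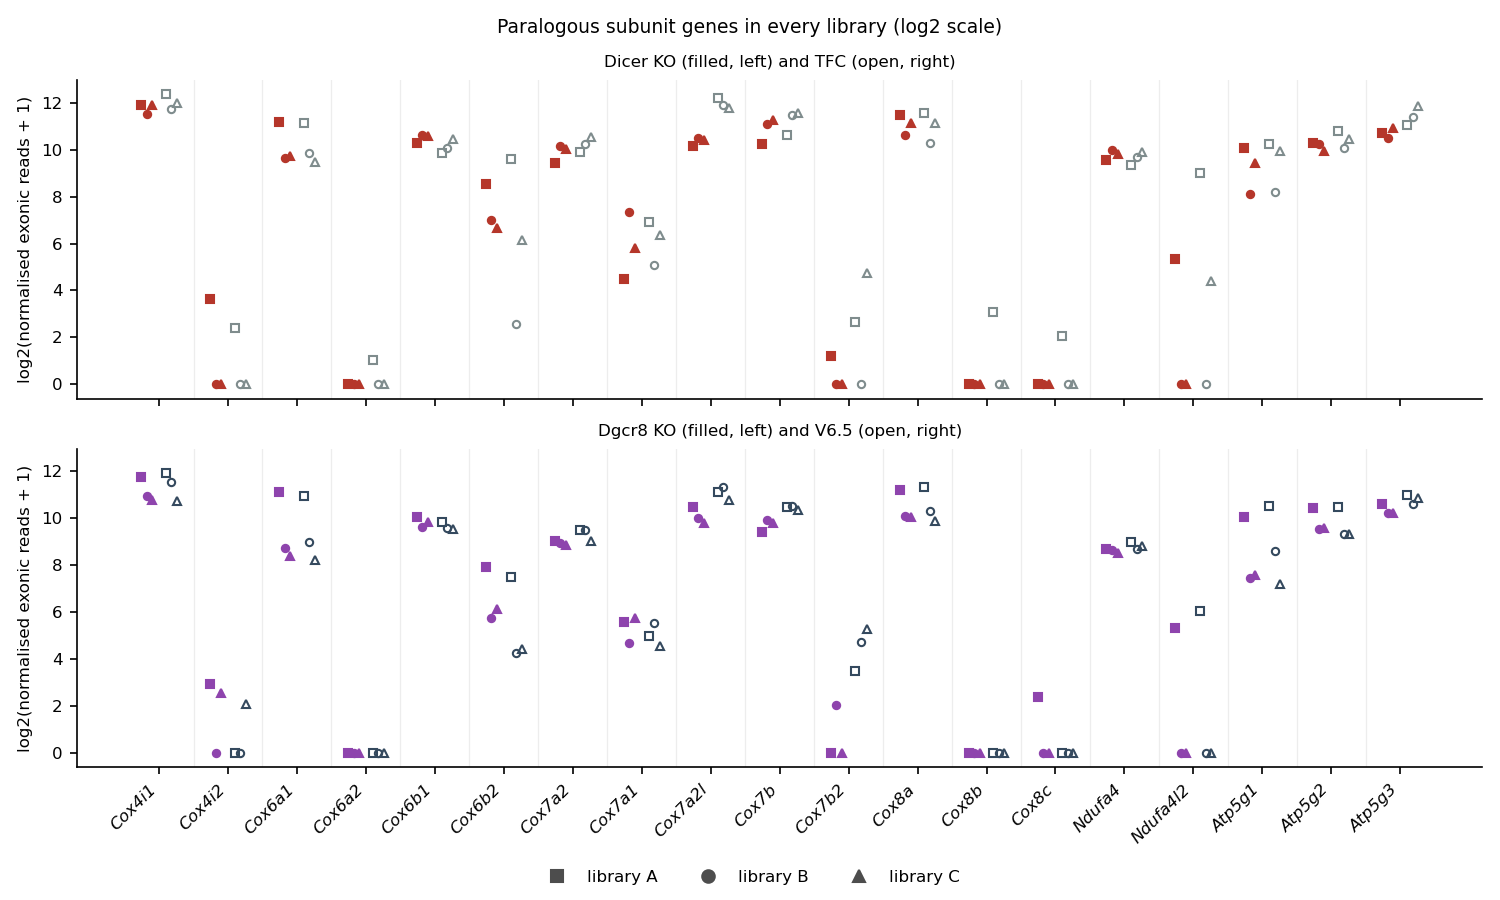
Log2(normalised exonic reads + 1) of paralogous subunit genes in every library, filled symbols for the knockout left of open symbols for its wild type, with the Dicer pair above the Dgcr8 pair. Cox4i2, Cox6a2, Cox8b and Cox8c lie at or near 0 in both pairs, and Ndufa4l2 and Cox6b2 stand highest in library A (squares).

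Intronic reads, which come from unspliced RNA, showed no member past the test in either pair. In Dicer1-/- cells 87 members were tested, with none called by limma beside 0.353% of all 11625 genes, and 5 stood at an unadjusted p under 0.05. In Dgcr8-/- cells 85 were tested, with none called beside 1.53% of all 10749 genes, and 5 stood at an unadjusted p under 0.05. Limma-voom called none in either. Median log2 fold changes of intronic reads were -0.088 in the Dicer pair (all genes 0.050) and 0.066 in the Dgcr8 pair (all genes -0.054). Groups did not overlap for 13 of the 87 members in the Dicer pair, 6 higher and 7 lower, beside 17.3% of all genes (9.27% higher, 7.99% lower), and for 13 of the 85 in the Dgcr8 pair, 9 higher and 4 lower, beside 19.7% (9.61% higher, 10.1% lower). With the library-set term none was called in the Dicer pair, beside 0.783% of all genes.

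Cox7a2l had 257, 326 and 319 intronic reads in Dicer1-/- cells against 267, 889.7 and 595 in TFC, a log2 fold change of -0.80 (SE 0.39, adjusted p = 0.510). In the Dgcr8 pair it had 222, 344 and 235 intronic reads in Dgcr8-/- cells against 287, 279 and 327 in V6.5, a log2 fold change of -0.18 (SE 0.31, adjusted p = 0.845). Sdhd had 162, 335 and 305 intronic reads in Dicer1-/- cells against 237, 249 and 327 in TFC, and 145, 75.7 and 69.5 in Dgcr8-/- cells against 136, 145 and 102 in V6.5. Intronic libraries of both genes overlapped between knockout and wild type in both pairs. Whether the exonic change differed from the intronic one was tested directly. No member passed in either pair, and no gene of the 11040 and 10379 tested did (0.0% each, limma), while 392 and 590 of them stood at an unadjusted p under 0.05. The exonic minus intronic change of Cox7a2l was -0.81 (SE 0.63, adjusted p = 0.926) in the Dicer pair and -0.83 (SE 0.45, adjusted p = 0.887) in the Dgcr8 pair. Over members its median was 0.013 in the Dicer pair and -0.210 in the Dgcr8 pair, against -0.058 and 0.002 over all genes. Limma put 0 and 2 members at an unadjusted p under 0.05, Ndufa10 (1.08) and Ndufs8 (-1.32), both in the Dgcr8 pair.

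Several intronic differences of large size rested on low values. In the Dicer pair the 5 largest were Sdhaf4, Ndufs8, Ndufc1, Ndufa3 and Atp5k. Each of them had 0 reads in TFC library B, and Sdhaf4, a factor that helps to join Sdha and Sdhb, had 50.3, 157 and 62.1 intronic reads in Dicer1-/- cells against 38.6, 0 and 0 in TFC. In the Dgcr8 pair the largest were Sdhaf4, with 30.7, 34.4 and 31.3 reads in Dgcr8-/- cells against 11.8, 10.8 and 0 in V6.5, and Ndufb10, a complex I subunit, with 6.0, 0 and 8.7 against 29.6, 12.4 and 31.2. Ndufs5, also of complex I, had 37.6, 18.3 and 0 intronic reads in Dgcr8-/- cells against 29.6, 34.0 and 48.6 in V6.5. Ndufb2 had 134, 92.9 and 95.5 intronic reads in Dgcr8-/- cells against 50.3, 38.7 and 2.5 in V6.5, and its gene overlaps Braf on the opposite strand. Cox6b2 had 164, 83.7 and 111 intronic reads in Dgcr8-/- cells against 56.3, 27.1 and 18.7 in V6.5 (log2 fold change 1.87, adjusted p = 0.156, limma). Ndufaf5, an assembly factor of complex I that hydroxylates Ndufs7, had 324, 349 and 326 intronic reads in Dgcr8-/- cells against 159.9, 98.2 and 208 in V6.5. All 3 knockout libraries lay above V6.5, and with the library-set term Ndufaf5 rose by 1.16 on the log2 scale (adjusted p = 0.0499), beside 4.2% of all genes called (2.6% higher, 1.59% lower). Without that term its adjusted p was 0.134, and over all alternatives it ran up to 0.466. In the Dicer pair Ndufaf5 had 483, 615 and 531 intronic reads in Dicer1-/- cells against 298, 71.2 and 481 in TFC. These groups did not overlap either, with a log2 fold change of 1.31 (adjusted p = 0.409, limma).

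Other genes of the pathway came from lists that are not members. In exonic reads, none of 20 assembly factors of complex IV, 6 of complex III, 7 others of complex I, 5 genes of complex V assembly and inhibition, 3 cytochrome c and c1 genes, 13 enzymes of the citrate cycle, 11 tested regulators and 78 mitochondrial ribosome genes passed the test in either knockout. Of the mitochondrial ribosome genes, which make the 13 proteins of the mitochondrial DNA, 61 of 78 were lower in Dicer1-/- cells, with a median log2 fold change of -0.398. In Dgcr8-/- cells 51 of 78 were lower, with a median of -0.146. At an unadjusted p under 0.05 (limma) stood 17 of the 78 in the Dicer pair and 11 in the Dgcr8 pair. The shares of all genes are not given beside these counts, and no result on the list is read from them. With the library-set term, 12 of the 78 fell and none rose in Dicer1-/- cells, and 8 fell and 1 rose in Dgcr8-/- cells. Of all genes, 5.04% fell in the Dicer pair and 8.62% in the Dgcr8 pair under that fit, so the count in the Dgcr8 pair is near the background. The count in the Dicer pair is given as description, since the lists were chosen with earlier results of these data known. Mrpl42, a protein of the large subunit, had 398, 552 and 795 reads in Dicer1-/- cells against 823, 1962 and 1732 in TFC, and 244, 294 and 277 in Dgcr8-/- cells against 541, 768 and 607 in V6.5.

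In the citrate cycle, which feeds complexes I and II, 10 of 13 genes were higher in Dicer1-/- cells and 7 of 13 in Dgcr8-/- cells. Cs, citrate synthase, had 10819, 15280.0 and 15271 reads in Dicer1-/- cells against 7369, 6429 and 9620.5 in TFC, and 10263, 10521 and 11287 in Dgcr8-/- cells against 5482, 6682 and 6682 in V6.5. All knockout libraries lay above all wild-type libraries in both pairs; Cs missed the test without the library-set term (adjusted p = 0.198 in the Dicer pair and 0.162 in the Dgcr8 pair, limma) and passed with it in both. With that term, Suclg1 also rose and Suclg2 fell in Dicer1-/- cells, both subunits of succinyl-CoA ligase, and Mdh2, malate dehydrogenase, rose in Dgcr8-/- cells, as did Acad9, which helps to assemble complex I, and Atpaf1, which helps to assemble complex V. Among regulators, Nrf1 had 989, 1219.9 and 1041 reads in Dicer1-/- cells against 956, 1112 and 1070.1 in TFC, groups that overlap. Tfam, which packages and transcribes mitochondrial DNA, had 1453, 3288 and 2194 reads in Dicer1-/- cells against 2300.3, 4343 and 4418 in TFC, and fell there with the library-set term. Myc, a broad activator of genes for growth and mitochondria, had 208, 145 and 157 reads in Dicer1-/- cells against 442, 768 and 1070.1 in TFC, and 367, 180.2 and 232 in Dgcr8-/- cells against 1287, 484 and 704.5 in V6.5. It missed the test without the library-set term and fell in both knockouts with it. All calls of single genes here with that term stand beside 12.3% of all genes called in the Dicer pair and 17.0% in the Dgcr8 pair. No result on the citrate cycle, the assembly factors or the regulators as groups is read from them.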

How the data were processed

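PolyA RNA of 12 mouse embryonic stem cell libraries was processed by the authors with TopHat2 2.0.12, DESeq and mm10, per the submitters' processing notes. The rules and gene models for counting are not given in the sources used here. Deposited were 4 tables of normalised read signal over 18412 genes, 1 column per genotype: group means of reads divided by a size factor, each table scaled on its own. No value per library is listed there, so tests planned for such values used recovered ones.

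Each deposited mean, given to 15 significant digits, is a whole-number combination of 3 steps, 1 per library. Solving for them gave size factors of 0.394 to 2.40 (exons) and 0.338 to 1.97 (introns), and whole reads. Of the genes of a column, 99.44 to 100.0% had 1 solution. Up to 54 genes per column with several solutions were kept where 1 solution put the libraries within a factor of 2, and up to 71 were left out. Among members this concerns Atp5b (Dicer1-/-, TFC and Dgcr8-/-) and Atp5a1 (Dgcr8-/-). Tested on simulated data, single solutions were right in 100.0% of genes of each column, and solutions kept among several in 43 of 43 (Dicer1-/- exons), 47 of 47 (TFC exons), 9 of 11 (Dgcr8-/- exons) and 2 of 2 (V6.5 exons). Between 66.4 and 71.6% of the read numbers were even, so reads are not treated as independent molecules and no counting interval is given. No libraries agreed within sampling noise (chi-square per gene at least 22.1 in exons, 14.3 in introns). Letters are not the labels' replicate numbers: A correlates least with the other 2 in exons, B and C follow by size factor, and intronic libraries took the letter whose exonic deviations they followed best (r of 0.305 to 0.419 for A, but 0.094 to 0.28 for B and C, so those 2 letters are uncertain in introns).

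Tests used limma 3.58.1 in R 4.3.3 on log2(value + 1), knockout minus wild type, with moderated variance, a trend on level and no covariate (a term for library A against B and C in an alternative fit). The fit of a single pair without that term had 4 residual degrees of freedom. The added 1 understates changes of low genes. Genes with a mean of at least 10 were tested, two-sided, with Benjamini-Hochberg adjustment over all of them. An exact permutation test of 3 against 3 libraries cannot go below p = 0.1. Exonic minus intronic values were centred on each library's median. Genes named with values are members called in any test, the 10 largest differences without overlap per exon table, the highest per kilobase of each complex, the isoform list and the 5 largest intronic differences per table. The values of 1 gene that this rule names are not reported here. Members and lists were chosen with earlier results of these data known. GC content came from the GENCODE vM21 transcript closest in length to the exonic length listed. In that annotation 96 members were located: 12 overlap another gene on the same strand and 35 on the opposite strand.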

Additional observations from a re-analysis of the deposited data

How the results depend on the processing

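Without a variance trend, with libraries B and C alone and with limma-voom, 0 members were called in Dicer exons in place of 1, and with the library-set term 5. Leaving out 1 library at a time gave 0 to 2: 0 without Dicer1-/- library B or C or TFC library B or C, and 2, Cox7a2l and Sdhd, without TFC library A. In Dgcr8 exons the library-set term gave 5 calls and libraries B and C alone 3, in place of 0. In Dgcr8 introns the library-set term gave 1. No other alternative changed a count of members called, among another pseudocount (8), a minimum mean of 50, no minimum, scaling to library totals and, for exonic minus intronic change, swapped letters of intronic libraries B and C, an alternative chosen after seeing the data. Counts of all genes called moved as well: in Dicer exons 162 genes, but 1621 with the library-set term and 63 in libraries B and C alone, and in Dgcr8 exons 161 genes, but 2164 and 2038 under the same settings. The median exonic minus intronic change of members in the Dicer pair was 0.013, and -0.159 to 0.155 when 1 library was left out. Intronic Ndufa3 in the Dicer pair had a log2 fold change of 1.94, and -0.242 to 3.15 when 1 library was left out, reversed without TFC library B, where it had 0 reads. No paired analysis was possible because the deposited columns carry no replicate number of the labels; the library-set term instead pairs the A libraries of knockout and wild type, which were singled out from these data and deviated together (r of 0.555 in the Dicer pair and 0.61 in the Dgcr8 pair), and B and C less so (0.088 to 0.385). Depth was lowest in V6.5 library A (5933173 exonic reads), and low intronic values limit what a single member can show.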
